A study of Homo sapiens with 12 samples.

Results

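The molecules described here are 48 human miRNA names of high number that carry no arm suffix. A name belonged to the set when its number was 1000 or more, when it did not end in -5p or -3p, when it was listed for both cell lines, and when it held at least 60 reads summed over the 6 libraries of each line. The number ranges 1224 to 1238 and 6726 to 6895 were left out by the rule. Of 1971 miRNA names listed for either line, 1494 were listed for both, 485 of these reached 60 reads in each line, and 227 names of this kind were candidates before the read limit. The read sums chose the members, so the fact that the members were detected is a description only. Just inside the limit stood miR-1262 with 60 reads in HCT116 and 170 in HEK293T, miR-1272 with 140 and 64, miR-1273c with 69 and 83, and miR-4284 with 253 and 74. Just outside it stood miR-3684 with 67 and 58 reads, miR-1257 with 57 and 458, miR-4488 with 221 and 57, and miR-4785 with 52 and 55. Of the 179 candidates that were not members, 31 passed the limit in 1 line.

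Small RNA was read by AQ-seq, a library protocol built to reduce ligation bias, in HCT116 (human colorectal carcinoma cells) and HEK293T (human embryonic kidney cells). Cells of each line were rescued with WT DICER, with DICER lacking its double-stranded RNA-binding domain (dsRBD deletion), or with an altered form named AA in the labels, which do not say what the change is. Every group of line and DICER form held 2 libraries, 12 in all, each from 100 µg of total RNA. The labels used here give neither the state of the DICER gene in the rescued cells, nor the amount of each form, nor whether the 2 libraries of a group came from separate cultures, and the p-values below cover only the spread between the libraries. The alteration of a form and its amount cannot be told apart here, nor can fewer rescued cells and less miRNA per cell.

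DICER cuts the hairpin precursors that the nuclear enzyme DROSHA releases from primary transcripts, and hands a short duplex to an Argonaute protein, which keeps 1 strand. The dsRBD lies at the carboxyl end of DICER and contacts the RNA near the RNase III centres that make the cuts. Numbers in miRNA names follow the order of registration, so high numbers come mostly from deep sequencing, and a name without suffix is usually a hairpin for which a single mature product is registered. Several such names share their sequence with a tRNA, snRNA, snoRNA or rRNA, from which small RNA fragments can arise without DICER.

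Mature sequences were found in RefSeq (GRCh38.p14) for 37 of the 48 members. The other 11 are miR-1254, miR-1272, miR-3609, miR-3687, miR-4286, miR-4326, miR-4417, miR-4461, miR-4532, miR-6087 and miR-7641. The first lines below give the 6 most abundant members and miR-1260a, the near-copy of miR-1260b. They are followed by 5 members whose whole sequence occurs in an annotated structural RNA. Then come 5 of the members called lower in both lines relative to added spike-in RNAs when the dsRBD was deleted. Last stand miR-4497 and miR-3182, which moved the other way in HCT116. Capitals mark the seed, bases 2 to 8 from the 5′ end, which pairs with targets.
miR-4521: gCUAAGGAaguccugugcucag
miR-1260b: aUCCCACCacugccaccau
miR-1260a: aUCCCACCucugccacca
miR-1268b: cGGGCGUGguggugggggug
miR-1268a: cGGGCGUGgugguggggg
miR-7974: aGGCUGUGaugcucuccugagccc
miR-4454: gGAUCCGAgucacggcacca
miR-1246: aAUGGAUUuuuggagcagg
miR-1248: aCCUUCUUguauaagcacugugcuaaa
miR-1291: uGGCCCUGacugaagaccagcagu
miR-3651: cAUAGCCCggucgcugguacauga
miR-4284: gGGCUCACaucaccccau
miR-3615: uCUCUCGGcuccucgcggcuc
miR-1303: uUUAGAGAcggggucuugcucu
miR-3909: uGUCCUCUagggccugcagucu
miR-2110: uUGGGGAAacggccgcugagug
miR-1262: aUGGGUGAauuuguagaaggau
miR-4497: cUCCGGGAcggcugggc
miR-3182: gCUUCUGUaguguaguc

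The pair miR-1260a and miR-1260b share 1 seed and differ by the substitution U9A (the base of miR-1260a, the position counted from 1 at the 5′ end, then the base of miR-1260b), and they are 18 and 19 bases long. The letters of miR-1268a are the first 18 of the 20 bases of miR-1268b. The sources used here do not say how reads that fit several names were counted, and the values of miR-1268a and miR-1268b may share reads and are not 2 independent measurements. Their ratio was nearly fixed, at 1.11 to 1.38 reads of miR-1268b per read of miR-1268a over the 12 libraries. MiR-1260b had 228 to 617 reads for each read of miR-1260a.

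In sequence the members stood apart from the other names that reached 60 reads in each line. The 37 mature sequences had a median length of 21 bases (17 to 27), and 12 of them (32.4%) were shorter than 20 bases, against 3 of 385 other names (0.779%). Lengths of 20 to 23 bases, the usual size of a DICER product, were found for 18 members (48.6%) and 363 of the 385 others (94.3%). The median share of G and C was 59.1% in the members and 47.6% in the others. A U at the first base, which Argonaute prefers, was present in 12 members (32.4%) and in 149 of the others (38.7%).

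The whole mature sequence occurred in an annotated snRNA, snoRNA, rRNA, mitochondrial tRNA or similar transcript of GENCODE release v29 for 5 members (13.5%) and 6 of the others (1.56%). MiR-1246 matched 8 transcripts of U2, the snRNA of the spliceosome that pairs with the branch site. MiR-1248 matched SNORA81, miR-1291 matched SNORA2C and miR-3651 matched SNORA84, which are all H/ACA snoRNAs, guides of pseudouridylation. MiR-4284 matched MT-TF, the mitochondrial tRNA for phenylalanine. A match of letters is a description and does not show from which transcript the reads came. Nuclear tRNA genes were not part of this search. By position, 27 members could be placed in a RefSeq hairpin, 18 in its 5′ part and 9 in its 3′ part.

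Total miRNA reads ran from 824987 to 4498886 per library, and spike-in reads, from 30 added synthetic RNAs, from 11053 to 49245. A count of 0 allows up to 3 reads, and such limits and the intervals below cover counting error only. DICER itself is not measured in small RNA, so the form in each library could not be checked against its label. Of the miRNAs taken as line markers, miR-31-5p stood at 61096 and 62177 CPM (counts scaled to a common library size after TMM) in the WT libraries of HCT116 and at 6144 and 5585 in HEK293T, and miR-10b-5p at 546 and 554 against 14876 and 20240. Of the other names taken as markers of HCT116, miR-200c-3p (50.1 and 47.6 CPM in HCT116, 25.5 and 37.1 in HEK293T) and miR-141-3p (71.0 and 72.3, 24.1 and 22.8) were higher in HCT116. MiR-192-5p (150 and 166, 645 and 643) and miR-194-5p (272 and 287, 1005 and 1256) went the other way. MiR-20b-5p and miR-363-3p, taken as markers of HEK293T, were at 1.17 CPM or less in both lines and did not tell them apart. Of the markers of other tissues, the blood cell miRNA miR-142-3p stood at 413 and 414 CPM in HCT116, and the neuronal miR-124-3p at 90.3 and 55.8 CPM in HEK293T, while miR-122-5p, miR-1-3p, miR-133a-3p and miR-223-3p were at 5.26 CPM or less in both lines. Their part in the results was not tested.

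As a sum, the members kept much of their level relative to the spike-ins when the dsRBD was deleted, while the other miRNAs lost most of theirs. In HCT116 the 48 members gave 2.13 and 2.87 reads per spike-in read with WT and 1.94 and 2.02 with the deletion, 79.2% of WT. All other miRNA names together gave 272 and 364 with WT and 61.7 and 62.7 with the deletion, 19.6% of WT. In HEK293T the members gave 2.36 and 2.77 with WT and 3.20 and 3.0 with the deletion, 121% of WT, whereas the other names gave 80.3 and 78.1 against 25.9 and 24.2, 31.7% of WT. None of these 4 contrasts had overlapping groups. An exact two-sided permutation test gave p = 0.33 in each, and with 2 libraries per group no lower p can be reached. No test of members against other names was run.

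**Figure D1:**
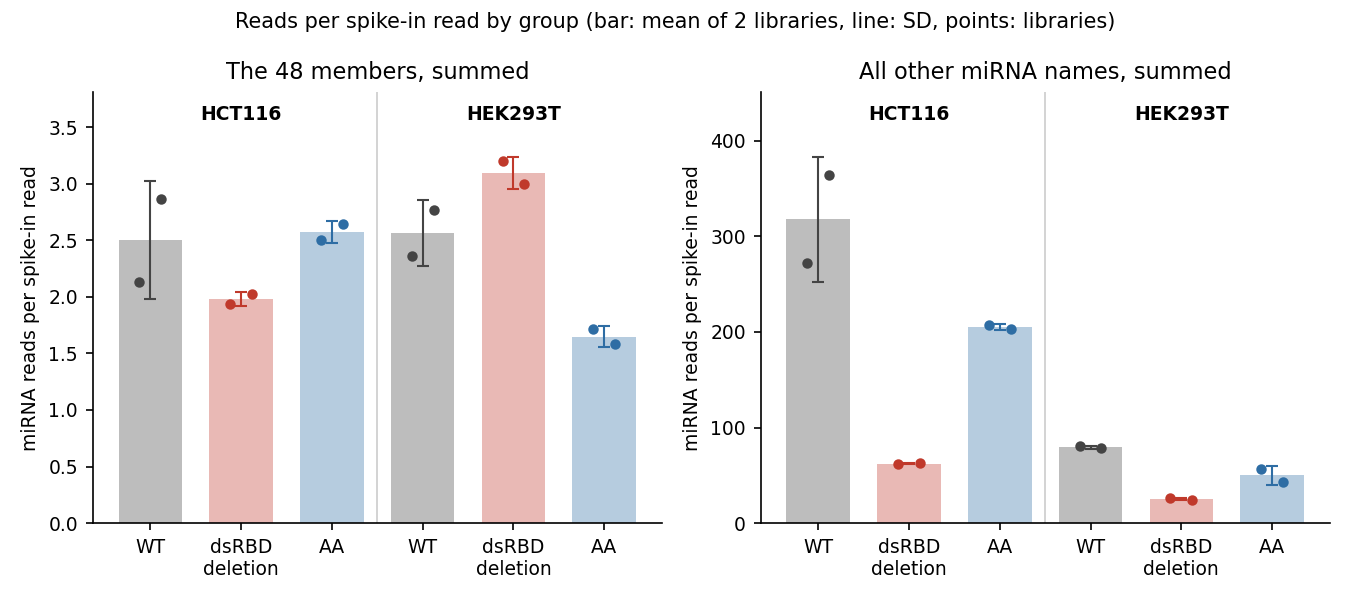
Reads per spike-in read in each group, for the 48 members summed (left) and for all other miRNA names summed (right); bars are means of 2 libraries, lines are SD and points are libraries. With the dsRBD deletion the right-hand bars fall to 19.6% (HCT116) and 31.7% (HEK293T) of WT, while the left-hand bars stand at 79.2% and 121%.

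With AA the lines differed in value. In HCT116 the members gave 2.5 and 2.64 reads per spike-in read, which lay between the WT libraries (103% of WT, exact permutation p = 1), while the other names stood at 64.5% of WT. That HCT116 member sum rested mostly on a few abundant names, and without these AA lay below WT (next paragraph). In HEK293T the members gave 1.71 and 1.58 and stood at 64.3% of WT, next to 63.0% for the other names (exact permutation p = 0.33, groups not overlapping). With spike-in size factors in place of spike-in reads, the member sum with AA was 91.75% of WT in HCT116, again overlapping, and 75.8% in HEK293T. The gap between the lines was thus smaller on that scale. As a share of all miRNA reads the members rose from 0.780% ± 0.0024 with WT (mean ± SD, n = 2 here and below) to 3.09% ± 0.055 with the deletion and 1.24% ± 0.065 with AA in HCT116. In HEK293T the share was 3.14% ± 0.40 with WT, 10.99% ± 0.014 with the deletion and 3.24% ± 0.47 with AA, and the WT and AA libraries overlapped.

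These sums rested on few names. MiR-4521, miR-1260b, miR-1268a and miR-1268b together made up 75.2% to 92.2% of the member reads of a library. Without these 4, the members gave 0.529 and 0.619 reads per spike-in read with WT and 0.375 and 0.389 with the deletion in HCT116. In HEK293T they gave 0.301 and 0.290 with WT and 0.278 and 0.233 with the deletion. The remaining 44 names were thus lower with the deletion in both lines as a sum, with no overlap. With AA these 44 gave 0.487 and 0.473 in HCT116 and 0.236 and 0.188 in HEK293T, also below WT without overlap.

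Changes of single names are given on 2 scales. The TMM scale sets the typical miRNA of a library to no change, so a value above 0 means a rise relative to the other miRNAs. The spike-in scale takes the spike-ins as the fixed point. The sources used here do not give the amount of spike-in RNA or the step of its addition, and the second scale holds only if all libraries received the same amount. Adjusted p values are from edgeR's quasi-likelihood test over all names with Benjamini-Hochberg adjustment, and a name is called where it is under 0.05. All 48 members passed the filter on low counts in every comparison. The comparisons of both altered forms use the same WT libraries and are not independent of each other.

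Most members rose with the dsRBD deletion in both lines on the TMM scale. In HCT116, 35 of 48 were higher and 4 lower, where 28.1% and 34.1% of all 795 tested names were called higher and lower, and the median change was 1.55 (log2) against −0.01 over all names. In HEK293T, 33 were higher and 6 lower, where the shares over all 626 tested names were 35.9% and 39.6%, and the median was 1.25 against −0.07. There were 29 members called higher in both lines and 3 called lower in both, miR-1303, miR-3615 and miR-3909. How many of all names were called alike in both lines was not counted. MiR-3611 was lower in HCT116 and higher in HEK293T.

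The same comparison gave few rises on the spike-in scale. In HCT116, 2 members were higher and 16 lower, against 0.881% and 75.2% of all names, and the median change was −0.23 for the members and −1.78 over all names. In HEK293T, 7 were higher and 17 lower, against 9.58% and 61.7%, with medians of −0.21 and −1.53. Of the 35 members that rose on the TMM scale in HCT116, 30 were not called on the spike-in scale, 2 were higher and 3 lower. In HEK293T, 24 of the 33 were not called, 7 were higher and 2 lower. The same split of all names that rose on the TMM scale was not counted, so these counts do not set the members apart. A missing call does not show that a level was equal. Taking the 30 spike-ins 1 at a time, the members' median change ran from −0.73 to 0.73 in HCT116, below 0 for 25 of 30, and from −1.82 to 1.00 in HEK293T, below 0 for 18 of 30. Tested among themselves, 17 of 30 spike-ins were called in HEK293T, so they moved unlike each other there and the spike-in scale is not firm. In HCT116 0 of 30 were called (0 at an unadjusted p under 0.05), which does not show that they moved alike. Around their median the spike-ins ran from −1.19 to 0.44 in HCT116 and from −1.21 to 1.63 in HEK293T.

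**Figure D2:**
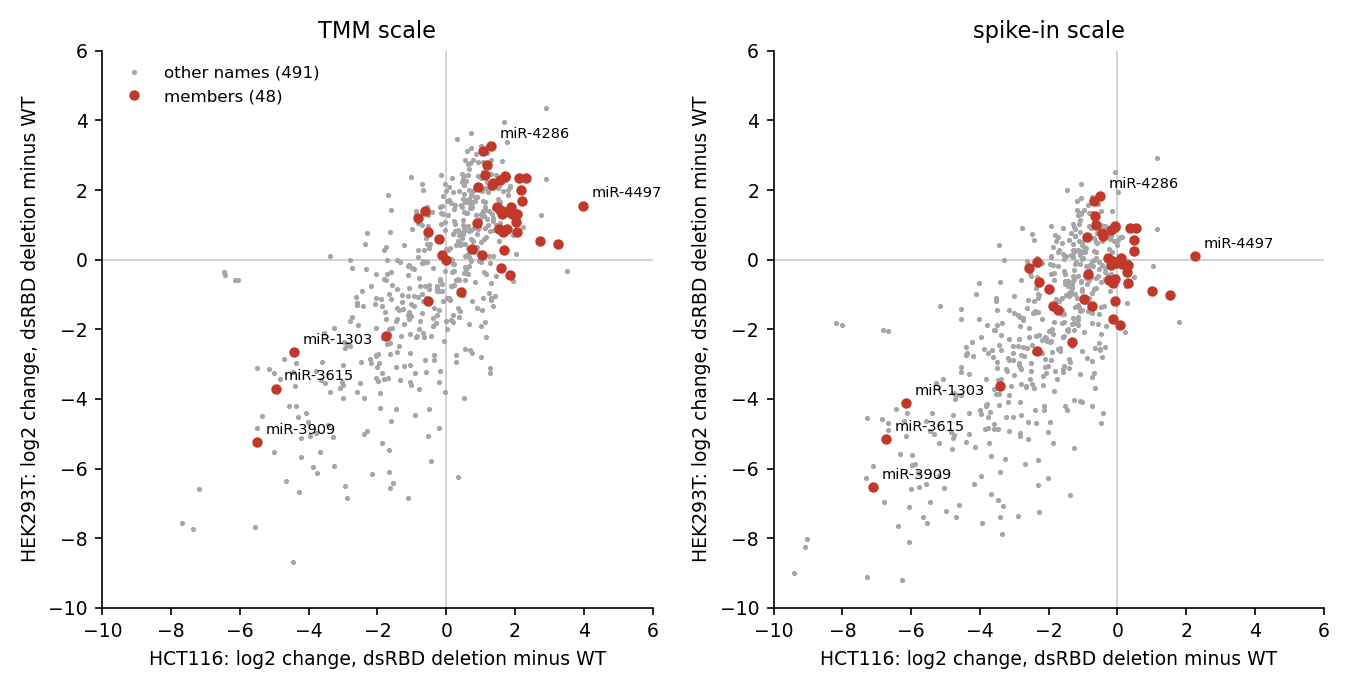
Log2 change with the dsRBD deletion in HCT116 (horizontal) and HEK293T (vertical) on the TMM scale (left) and the spike-in scale (right), for the 48 members (red) and 491 other names tested in both lines (grey). Most members lie at the upper right of the grey cloud, with medians of 1.55 and 1.25 on the TMM scale and −0.23 and −0.21 on the spike-in scale, and miR-1303, miR-3615 and miR-3909 lie far below.

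Other names that reached the same 60 reads in each line fell further as groups. The median change on the spike-in scale in HCT116 was −2.01 for 61 high-number names with an arm suffix, −1.92 for 346 low-number names with a suffix and −2.64 for 30 low-number names without one. The same medians in HEK293T were −1.35, −2.03 and −2.48. The members' medians, −0.23 and −0.21, lay above all of these. The difference between the groups of names was not tested.

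**Figure D3:**
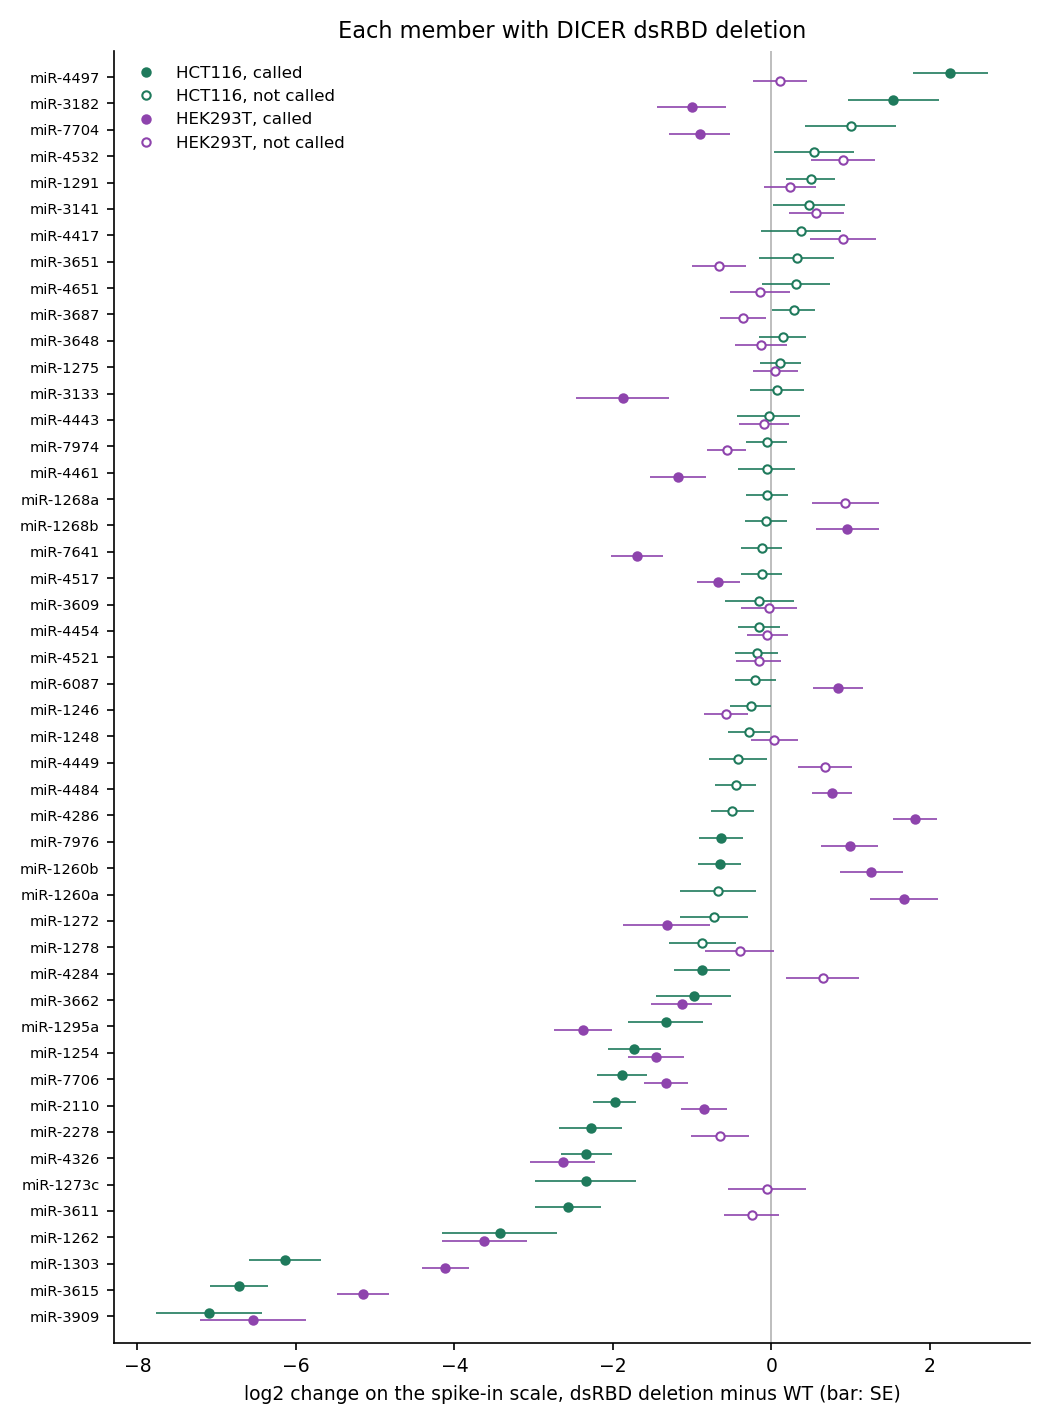
Log2 change with the dsRBD deletion on the spike-in scale for each of the 48 members, ordered by the HCT116 value, in HCT116 (green) and HEK293T (purple); bars are SE and filled points passed an edgeR adjusted p of 0.05. In HCT116, 30 members were not called and most of these lie near 0, while 10 members were called lower in both lines. Over all names, 75.2% in HCT116 and 61.7% in HEK293T were called lower.

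MiR-4521, the most abundant member, lies on chromosome 17 (chr17:8186948-8186969, plus strand, GRCh38) outside annotated genes. In HCT116 it gave 493 and 866 reads per 1000 spike-in reads with WT, 493 and 715 with the deletion and 751 and 1016 with AA. In HEK293T it gave 1500 and 1941 with WT, 1289 and 1863 with the deletion and 1038 and 1258 with AA. The WT and deletion libraries overlapped in both lines on this measure. On the TMM scale miR-4521 rose with the deletion by 1.63 ± 0.21 (log2 ± SE, adjusted p = 5.17e-05) in HCT116 and 1.30 ± 0.27 (0.00115) in HEK293T, and on the spike-in scale it changed by −0.18 ± 0.27 and −0.16 ± 0.28, not called.

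MiR-1260b carries bases known from tRNA for leucine and lies opposite an exon of MAML2 (chr11:96341447-96341465, plus strand). In HCT116 it gave 443 and 838 reads per 1000 spike-in reads with WT and 429 and 397 with the deletion. In HEK293T it gave 426 and 338 with WT, 1209 and 662 with the deletion, and 364 and 116 with AA. The WT and deletion libraries did not overlap in either line and differed in direction between the lines, while 1 AA library of HEK293T lay between the WT libraries. MiR-1260b fell on the spike-in scale by 0.65 ± 0.27 (adjusted p = 0.0209) in HCT116 and rose by 1.26 ± 0.40 (0.00867) in HEK293T. Its companion miR-1260a (chr14:77266231-77266248, plus strand, opposite an exon of NGB) gave 1.46 and 1.36 with WT and 0.849 and 0.909 with the deletion in HCT116, and 1.48 and 0.979 against 5.30 and 2.69 in HEK293T. For both names the first deletion library of HEK293T was the higher one.

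MiR-1268a (chr15:22225308-22225325, minus strand, outside annotated genes) gave 317 and 257 reads per 1000 spike-in reads with WT in HCT116 and 304 and 247 with the deletion, which overlapped. In HEK293T it gave 62.3 and 94.3 with WT, 199 and 110 with the deletion, and 34.3 and 9.5 with AA, with no overlap between forms. MiR-1268b (chr17:80098831-80098850, plus strand, intron of CCDC40) moved with it, from 69.9 and 105 with WT to 223 and 129 with the deletion in HEK293T. The rise in HEK293T on the spike-in scale was 0.96 ± 0.40 (adjusted p = 0.0399) for miR-1268b and 0.93 ± 0.43 (0.059, not called) for miR-1268a.

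MiR-4454, whose sequence is known from tRNA for histidine, was among the steadiest members relative to the spike-ins. It lies on chromosome 4 (chr4:163093607-163093626, minus strand) outside annotated genes. In HCT116 it gave 83.2 and 89.8 reads per 1000 spike-in reads with WT, 71.1 and 84.6 with the deletion and 91.2 and 78.6 with AA. In HEK293T the values were 49.8 and 38.7, 46.1 and 40.8, and 53.3 and 36.2. The groups overlapped in every comparison with WT. Relative to the other miRNAs miR-4454 rose with the deletion by 1.62 ± 0.14 (adjusted p = 3.11e-06) in HCT116 and 1.40 ± 0.18 (3.01e-05) in HEK293T.

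MiR-7974 gave 59.3 and 94.7 reads per 1000 spike-in reads with WT and 79.0 and 70.4 with the deletion in HCT116, which overlapped. In HEK293T it gave 53 and 59.2 against 42.7 and 35.3, with no overlap. MiR-4484 lay at 36.3 and 56.4 with WT and 35.3 and 33.2 with the deletion in HCT116, and at 14.5 and 13.5 against 26.8 and 21.7 in HEK293T. MiR-4484 was called higher on the spike-in scale in HEK293T (0.76 ± 0.25, adjusted p = 0.0127), and miR-7974 was not called in either line. MiR-4517 and miR-1275, the others of the 10 most abundant beside miR-4286, were at 16.5 to 19.7 and 17.2 to 22.3 reads per 1000 spike-in reads over the WT and deletion libraries of HCT116. In HEK293T miR-4517 fell on the spike-in scale (−0.67 ± 0.27, adjusted p = 0.0349) while it rose on the TMM scale (0.79 ± 0.20, 0.00489). Without deletion replicate 2 that rise was 0.57 and no longer called.

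**Figure D4:**
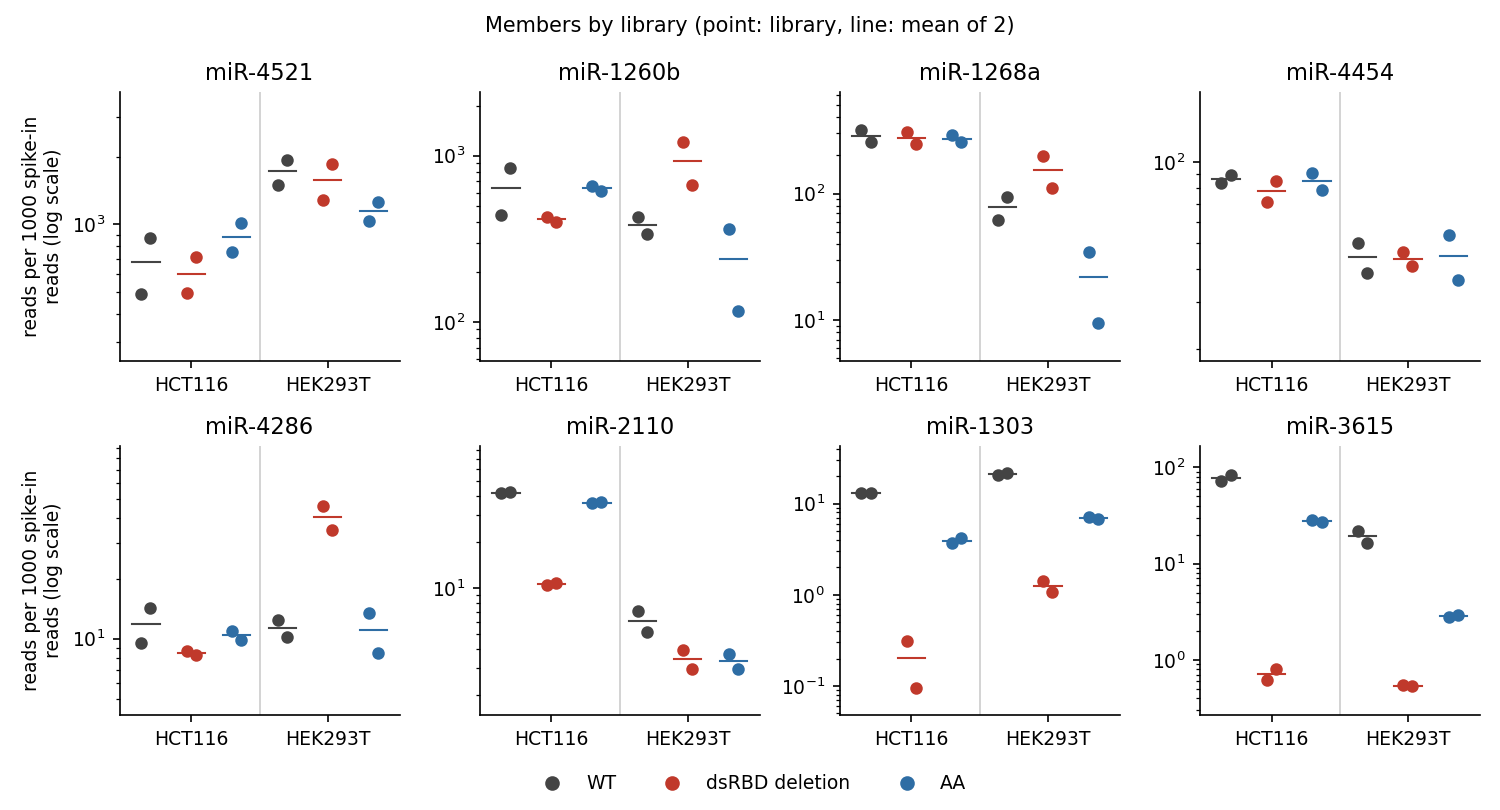
Reads per 1000 spike-in reads (log axis) for 8 members in the 6 groups, 1 point per library and a line at the mean of 2. MiR-4454 overlaps between WT and each other form, miR-4286 rises in HEK293T to 46.1 and 34.9, and miR-1303 and miR-3615 drop in both lines with the deletion and partly with AA.

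Of the 14 names listed for known overlap with a tRNA, snRNA, snoRNA or rRNA, 10 were members. All 10 rose on the TMM scale with the deletion in HCT116, with a median of 1.61, where 28.1% of all names were called higher, and 9 rose in HEK293T, with a median of 1.36, where 35.9% were. Scaled by the spike-ins, 0 rose and 1 fell in HCT116, with a median of −0.14, and 2 rose and 1 fell in HEK293T, with a median of −0.09, where 75.2% and 61.7% of all names were called lower. The other 38 members had spike-in scale medians of −0.44 and −0.33. The list was drawn up with results of these data known.

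Among these, the U2 match miR-1246 (chr2:176601024-176601042, minus strand) gave 18.5 and 26.0 reads per 1000 spike-in reads with WT and 17.6 and 19.7 with the deletion in HCT116, which overlapped. In HEK293T it gave 11.1 and 16.3 against 9.65 and 9.28, with no overlap. The snoRNA matches differed in direction in HCT116 without overlap. MiR-1248 (chr3:186786675-186786701, plus strand, in SNORA81 and EIF4A2) gave 15.9 and 14.8 with WT and 11.0 and 14.2 with the deletion. MiR-1291 (chr12:48654494-48654517, minus strand, in a KANSL2 intron) gave 5.05 and 2.53 against 5.71 and 5.21, and miR-3651 (chr9:92292461-92292484, minus strand, in an IARS intron) 1.16 and 1.09 against 1.23 and 1.53. MiR-1246, miR-1248, miR-1291 and miR-3651 were not called on the spike-in scale in either line with the deletion. Their spike-in scale changes lay between −0.28 and 0.49 in HCT116 and between −0.67 and 0.24 in HEK293T. MiR-4284, the MT-TF match, was not on the list of names known for such overlap and was counted with the other members. MiR-4284 gave 2.56 and 4.61 with WT against 1.00 and 2.63 with the deletion in HCT116, which overlapped, and 0.296 and 0.273 against 0.495 and 0.422 in HEK293T. It fell on the spike-in scale in HCT116 by 0.88 ± 0.35 (adjusted p = 0.0188) and was not called in HEK293T (0.65 ± 0.46), while it rose on the TMM scale in both lines (0.91 ± 0.36 and 2.09 ± 0.40).

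MiR-3648 and miR-3687 are known from the external spacer of the rRNA precursor. On the TMM scale miR-3648 rose by 1.93 ± 0.25 in HCT116 and 1.32 ± 0.32 in HEK293T, and miR-3687 by 2.04 ± 0.17 and 1.09 ± 0.26. Neither was called in either line on the spike-in scale. MiR-7641 differed between the lines, with 23 and 15.7 reads per 1000 spike-in reads with WT and 14.1 and 21.2 with the deletion in HCT116, and 8.05 and 8.43 against 1.76 and 3.38 in HEK293T. It fell in HEK293T by 1.70 ± 0.33 on the spike-in scale (adjusted p = 0.000189). The HEK293T rise of miR-3651 on the TMM scale, 0.79 ± 0.30 (0.0318), was no longer called without WT replicate 2 (0.34), deletion replicate 1 (0.84) or deletion replicate 2 (0.62). The HCT116 rise of miR-1260a, 1.06 ± 0.39 (0.0359), was not called without any 1 of the 4 WT and deletion libraries (0.81 to 1.17), with DESeq2 (1.03) or with no filter (0.84).

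At the other end stood members that were nearly emptied by the deletion. MiR-3615 lies in an exon of SLC9A3R1 (chr17:74748663-74748683, plus strand) in the 3′ part of its hairpin. HCT116 held 72.7 and 83.1 reads of it per 1000 spike-in reads with WT, 28.5 and 27.1 with AA, and 0.617 and 0.813 with the deletion. Its values in HEK293T were 21.8 and 16.3 with WT, 2.78 and 2.92 with AA, and 0.550 and 0.533 with the deletion. The 3 forms did not overlap in either line, with AA between WT and the deletion. On the TMM scale miR-3615 fell with the deletion by 4.96 ± 0.21 (adjusted p = 1.17e-08) in HCT116 and 3.70 ± 0.27 (5.31e-07) in HEK293T.

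MiR-1303 (chr5:154685827-154685848, plus strand) lies outside annotated genes. HCT116 libraries gave 13.1 and 13.2 reads per 1000 spike-in reads with WT, 3.65 and 4.23 with AA, and 0.309 and 0.0956 with the deletion. HEK293T held 20.7 and 21.4 with WT, 7.11 and 6.73 with AA, and 1.43 and 1.07 with the deletion. The order of the forms was that of miR-3615, again without overlap. The deletion libraries of HCT116 held 6 reads against 361 with WT, 1.35% of WT per spike-in read (exact 95% interval 0.492% to 2.96%). The TMM-scale fall in HCT116 was 4.42 ± 0.41 (adjusted p = 4.63e-06). Without deletion replicate 1 it was −5.49 and without deletion replicate 2 it was −3.65. In HEK293T miR-1303 fell by 2.67 ± 0.23 (1.58e-06).

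MiR-3909 (chr22:35335710-35335731, plus strand, intron of TOM1) was singled out after its values were seen, being too rare for the rule by which members are named. HCT116 libraries gave 4.75 and 5.43 reads per 1000 spike-in reads with WT, 2.06 and 1.97 with AA, and 0 and 0.0478 with the deletion. HEK293T held 1.48 and 1.37 with WT, 0.244 and 0.215 with AA, and 0.0275 and 0 with the deletion. A single read was left in the deletion libraries of each line, against 138 WT reads in HCT116 and 110 in HEK293T. That is 0.588% of WT per spike-in read in HCT116 (exact 95% interval 0.0148% to 3.33%) and 0.868% in HEK293T (0.0218% to 4.94%).

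Smaller falls were shared as well. Relative to the spike-ins, 10 members were called lower with the deletion in both lines, these 3 and miR-1254, miR-1262, miR-1295a, miR-2110, miR-3662, miR-4326 and miR-7706. Over all names, 75.2% in HCT116 and 61.7% in HEK293T were called lower on this scale, against 16 and 17 of the 48 members. The share of all names called lower in both lines was not counted. MiR-2110 (chr10:114174151-114174172, minus strand, exon of CCDC186), which was also chosen after its values were seen, gave 41.6 and 42.4 reads per 1000 spike-in reads with WT, 35.9 and 36.4 with AA and 10.5 and 10.9 with the deletion in HCT116. The HEK293T values were 7.07 and 5.15, 3.70 and 2.95, and 3.93 and 2.95. Its fall with the deletion on the spike-in scale was 1.98 ± 0.27 in HCT116 (adjusted p = 1.19e-12), which is a fold of 3.94, and 0.85 ± 0.29 in HEK293T (0.0142), although on the TMM scale it rose in HEK293T by 0.60 ± 0.23 (0.0334). That rise was lost without WT replicate 2 (0.29), deletion replicate 1 (0.44) or deletion replicate 2 (0.63).

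MiR-1262 (chr1:68183576-68183597, minus strand, intron of WLS) had 4 reads with the deletion against 38 with WT in HCT116, and 8 against 97 in HEK293T, 7.87% of WT per spike-in read (exact 95% interval 3.30% to 16.1%). On the TMM scale it fell in HEK293T by 2.19 ± 0.57 (adjusted p = 0.00501), or by 1.61 without WT replicate 2. MiR-4326 fell in HEK293T by 1.19 ± 0.37 (0.0124), and the call was lost without deletion replicate 1 (−0.91). MiR-1295a fell by 0.92 ± 0.32 (0.0208), and the call was lost without WT replicate 1 (−0.87) or deletion replicate 1 (−0.64). The HCT116 fall of miR-3611 (chr10:35079609-35079629, minus strand, intron of CUL2), 0.81 ± 0.32 (0.0482), was lost without any 1 of the 4 WT and deletion libraries (−1.22 to −0.78), with DESeq2 (−0.88), with library totals (−0.27) and with upper-quartile factors (−0.53). MiR-3611 fell on the spike-in scale in HCT116 by 2.56 ± 0.42 and was not called in HEK293T (−0.25 ± 0.35).

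Among the larger rises in HCT116, miR-4497 (chr12:109833350-109833366, plus strand, opposite an exon of TRPV4) went from 0.791 and 0.362 to 5.09 and 1.10 reads per 1000 spike-in reads. It rose by 3.99 ± 0.79 on the TMM scale (adjusted p = 0.00123) and by 2.26 ± 0.48 on the spike-in scale. The first deletion library held most of the rise, with 68.1 CPM against 13.3 in the second, and without deletion replicate 1 the TMM value was 2.37. Leaving out either of the other 3 libraries gave 3.39 to 4.76. MiR-3182 (chr16:83508349-83508365, plus strand, intron of CDH13), the other member higher on the spike-in scale, gave 0.548 and 0.271 with WT and 2.08 and 0.622 with the deletion. It is named here after its values were seen. MiR-1291 (2.21 ± 0.34), miR-3141 (2.19 ± 0.45), miR-4651 (2.05 ± 0.31) and miR-3687 followed on the TMM scale among members with a mean of 10 CPM or more in the line, and none of these 4 was called on the spike-in scale. Without WT replicate 1 the values of miR-1291 and miR-3141 were 2.89 and 2.94.

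In HEK293T the largest rise belonged to miR-4286, which gave 12.4 and 10.2 reads per 1000 spike-in reads with WT and 46.1 and 34.9 with the deletion. In HCT116 it gave 9.5 and 14.3 against 8.64 and 8.27. The groups did not overlap in either line, and the direction differed between them. The HCT116 fall (−0.49 on the spike-in scale) was not called, and on the TMM scale miR-4286 was called higher in HCT116 too. On the TMM scale miR-4286 rose in HEK293T by 3.27 ± 0.20 (adjusted p = 1.4e-07) and on the spike-in scale by 1.81 ± 0.28 (1.37e-05). MiR-1260a (3.12 ± 0.41), miR-1260b (2.71 ± 0.38), miR-7976 (2.44 ± 0.30), miR-1268b (2.41 ± 0.39) and miR-1268a (2.38 ± 0.43) followed on the TMM scale. MiR-7976 (chr3:127587158-127587176, minus strand, intron of TPRA1) gave 1.95 and 1.21 with WT and 3.33 and 3.0 with the deletion.

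MiR-7706 and miR-6087, among the remaining members, are named after their values were seen. MiR-7706 (chr15:85380639-85380662, plus strand, exon of AKAP13) gave 7.67 and 9.68 reads per 1000 spike-in reads with WT, 3.72 and 4.75 with AA and 2.70 and 2.06 with the deletion in HCT116. The HEK293T values were 7.43 and 6.90 with WT, 2.68 and 2.86 with AA and 2.97 and 2.84 with the deletion, so both altered forms lay below WT without overlap in both lines. MiR-7706 fell on the spike-in scale with the deletion by 1.88 ± 0.31 in HCT116 and 1.33 ± 0.28 in HEK293T, and with AA by 1.18 ± 0.30 and 1.13 ± 0.28. It was called in none of these 4 comparisons on the TMM scale, at −0.11 and 0.12 with the deletion and −0.58 and −0.64 with AA. MiR-6087 gave 27.0 and 26.2 with WT and 22.4 and 24.0 with the deletion in HCT116, not called on the spike-in scale, and 5.62 and 2.82 against 7.97 and 7.22 in HEK293T, where it rose by 0.84 ± 0.32 (adjusted p = 0.0248). MiR-6087 rose on the TMM scale in both lines, by 1.57 ± 0.17 and 2.29 ± 0.28. The rarer members miR-1254, miR-1272, miR-1273c, miR-1278, miR-2278, miR-3133, miR-3609, miR-3662, miR-4284, miR-4417, miR-4443, miR-4449, miR-4461, miR-4532 and miR-7704, gave at most 10.3 reads per 1000 spike-in reads in any library, the maximum being miR-4532 in a HEK293T deletion library. With the deletion miR-4532 rose on the TMM scale by 2.31 ± 0.56 in HCT116 and 2.35 ± 0.40 in HEK293T and was not called on the spike-in scale. MiR-1254 and miR-3662, which were called lower on the spike-in scale in both lines, were called in neither on the TMM scale.

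The members were grouped by length. All 12 members shorter than 20 bases rose with the deletion on the TMM scale in HCT116, with a median of 1.70, and 10 of the 12 rose in HEK293T, against 35 and 33 of all 48 members and 28.1% and 35.9% of all names. Of the 18 members of 20 to 23 bases, 9 rose and 4 fell in HCT116, and 12 rose and 5 fell in HEK293T. On the spike-in scale the medians in HCT116 were −0.05 below 20 bases, −1.10 at 20 to 23 and −0.12 for the 7 members over 23 bases. In HEK293T they were 0.34, −0.33 and −0.67. Across the 37 members Spearman's rho of length and TMM-scale change was −0.31 in HCT116 and −0.44 in HEK293T. These points come from the same libraries, and no test was run.

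**Figure D5:**
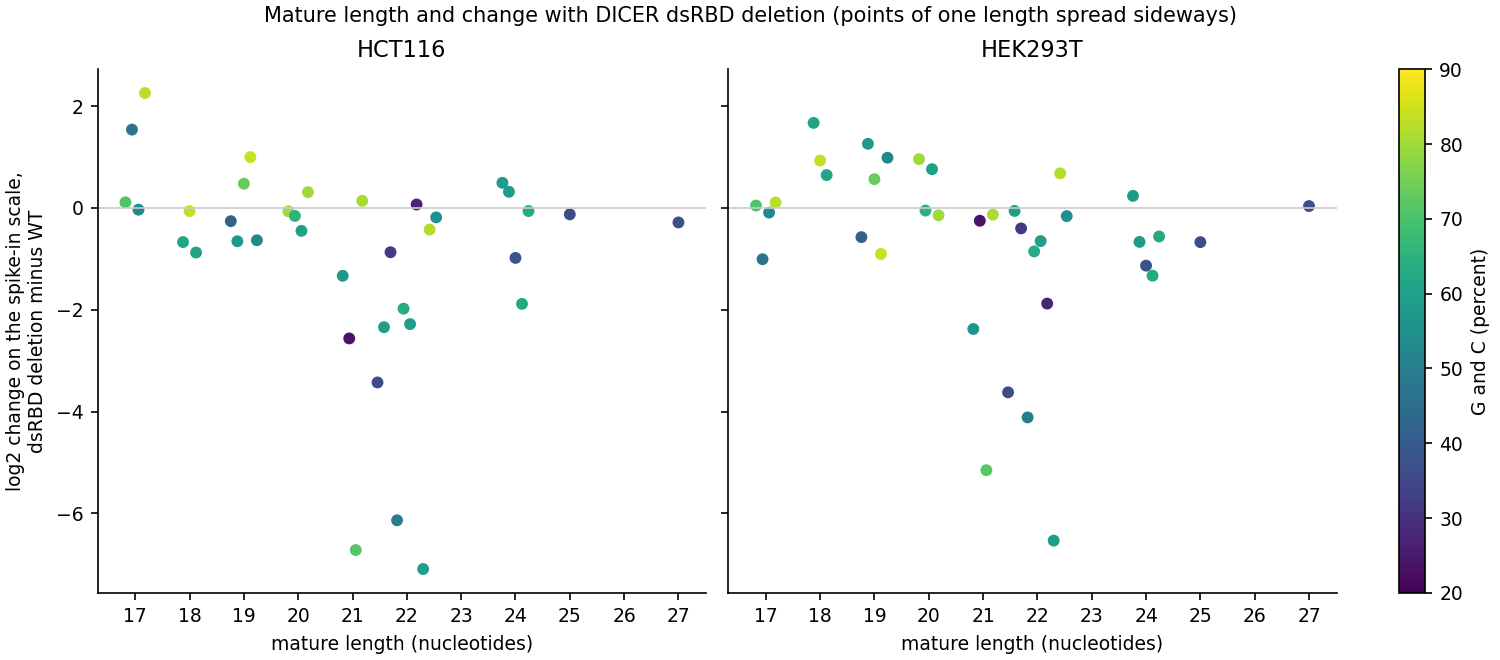
Mature length (horizontal) and log2 change with the dsRBD deletion on the spike-in scale (vertical) for the 37 members with a RefSeq sequence in HCT116 (left) and HEK293T (right), coloured by the percent of G and C. The deepest falls lie at 21 and 22 bases, and the 12 members shorter than 20 bases have medians of −0.05 and 0.34.

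The members were also grouped by their first base. Of the 12 members that begin with U, 5 rose and 4 fell with the deletion on the TMM scale in HCT116, and 6 rose and 4 fell in HEK293T. Of the 25 that begin with another base, 21 rose and 0 fell in HCT116, and 21 rose and 1, miR-1262, fell in HEK293T. Over all 48 members 35 rose and 4 fell in HCT116, and 33 rose and 6 fell in HEK293T, and over all names the shares called higher and lower were 28.1% and 34.1% in HCT116 and 35.9% and 39.6% in HEK293T.

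On the TMM scale few members were called with AA, and their shares were not tested against those of all names. In HCT116, 1 member was higher (2.08%) and 2 lower (4.17%) on this scale, against 1.26% and 6.16% of all names. The median was 0.28 against −0.03. MiR-4521 rose by 0.85 ± 0.20 (adjusted p = 0.0305), from 2037 and 2882 CPM with WT to 3718 and 5149, and miR-3615 and miR-1303 fell by 1.05 ± 0.14 (0.00164) and 1.31 ± 0.23 (0.006). Without AA replicate 1 all 3 calls were lost (1.07, −1.07 and −1.19), and that of miR-4521 was also lost without AA replicate 2 (0.58). The count of members called higher ran from 0 to 5 when 1 library was left out. On the spike-in scale 0 members were higher and 6 lower, against 0.252% and 34% of all names, and the medians were −0.30 and −0.63.

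In HEK293T, AA gave 3 higher (6.25%) and 4 lower (8.33%) members on the TMM scale, against 6.23% and 15.2% of all names, with medians of −0.05 and −0.11. MiR-7974 (0.75 ± 0.19), miR-4454 (0.73 ± 0.17) and miR-4286 (0.68 ± 0.19) rose. MiR-3615 (−2.00 ± 0.23, adjusted p = 0.000201), miR-3909 (−1.91 ± 0.37), miR-3141 (−1.17 ± 0.37) and miR-1303 (−0.87 ± 0.20) fell. Only miR-3615 kept its call whichever of the WT and AA libraries was left out. The call was lost without AA replicate 2 or WT replicate 1 for miR-7974 (both 0.63), without AA replicate 1 (0.57) or WT replicate 2 (0.51) for miR-4454, and without AA replicate 1 (0.45), WT replicate 1 (0.78) or WT replicate 2 (0.49) for miR-4286. It was lost without AA replicate 1 or 2 for miR-1303 (−0.79 and −0.95) and miR-3909 (−1.86 and −1.91), and without any of the 4 for miR-3141 (−1.52 to −0.95).

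On the spike-in scale 0 members were higher with AA in HEK293T and 12 lower, against 1.28% and 30.4% of all names, with medians of −0.53 and −0.58. The AA replicates differed for some members, with 116 in replicate 2 against 364 reads per 1000 spike-in reads in replicate 1 for miR-1260b and 13.1 against 40.5 for miR-1268b, and less for others, such as miR-1246 with 8.18 against 10.2. MiR-1268a was lower on the spike-in scale by 1.61 ± 0.44 (adjusted p = 0.00972), and on the TMM scale its change of −1.20 ± 0.42 was not called (0.0689), although it was called with library totals (−1.26) and with no filter on low counts (−1.29). With the upper-quartile scaling, 10 members were higher and 2 lower, and over all names 129 and 41 in place of 39 and 95, so the balance of rises and falls with AA in HEK293T depends on the scaling.

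Between the lines with WT, 26 members were higher in HEK293T and 6 lower on the TMM scale, where 32% and 41.2% of 844 names were called higher and lower, with medians of 0.85 and −0.39. On the spike-in scale 6 were higher and 25 lower, against 10.1% and 68.4%. The largest excess in HEK293T was that of miR-4497 (4.0 ± 0.60, TMM scale), miR-4532 (3.87 ± 0.49), miR-7704 (3.33 ± 0.49) and miR-4521 (3.09 ± 0.27), all 4 also called higher on the spike-in scale. With WT in HCT116, miR-4497, miR-4532 and miR-7704 had means of 2.24, 3.01 and 1.93 CPM, so their values rest on few reads there. With single HCT116 WT libraries left out, miR-4532 stood at 3.21 (replicate 1) or 4.90 (replicate 2), and miR-4497 at 4.87 without replicate 1. The largest deficits were those of miR-4284 (−1.90 ± 0.41), miR-2110 (−1.12 ± 0.19), miR-3133 (−1.08 ± 0.40) and miR-4326 (−1.05 ± 0.29). MiR-3133 was no longer called without HCT116 WT replicate 2 (−0.78) or HEK293T WT replicate 1 (−0.58), and stood at −1.99 without HEK293T WT replicate 2.

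The effect of the deletion itself differed between the lines for 19 members on the TMM scale, 14 with a higher change in HEK293T and 5 with a lower one, against 22.4% and 12.4% of all names. Among members with a mean of 10 CPM or more over both lines, the largest positive differences were those of miR-1260a (2.39 ± 0.60), miR-3611 (2.33 ± 0.46), miR-4286 (2.27 ± 0.29, adjusted p = 1.32e-06) and miR-1303 (2.06 ± 0.58). The largest negative ones were those of miR-3182 (−2.49 ± 0.78), miR-4497 (−2.12 ± 0.80), miR-3133 (−2.02 ± 0.68) and miR-7704 (−1.89 ± 0.70). All 8 were also called on the spike-in scale, but miR-4497 was not called with DESeq2 (−2.58), nor miR-1303 with library totals (1.34). With WT in HCT116, miR-3182, miR-4497 and miR-7704 had means of 1.58, 2.24 and 1.93 CPM, so their differences rest on few reads there. On the spike-in scale 13 members had a higher and 5 a lower change, against 20.9% and 10.8%. With library totals in place of TMM the count was 4 higher and 12 lower, and over all names 93 and 197 in place of 189 and 105, so this balance depends on the scaling. With 1 library left out, the count of lower differences ran from 1 to 6. For the effect of AA, edgeR called 0 of 48 members different between the lines, against 0.948% and 2.96% of all names, with 10 members at an unadjusted p under 0.05, and DESeq2 called 0. Spike-in size factors also gave 0 called members, against 0.948% and 1.66%. Other settings called some lower, 8 with the spike-in total, 5 with library totals and 3 with no filter on low counts. Over all names these settings called 49, 71 and 32 lower, so this count depends on the scaling and the filter.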

How the data were processed

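The deposited files hold raw counts per miRNA name and spike-in RNA, 1 file for each of 12 libraries. The authors' tools were cutadapt, BWA and bedtools with the builds hg38 and mm10, per the submitters' processing notes; their versions and order, the annotation and the counting of reads that fit several names: not given in the sources used here. Members, lists and tests were chosen with earlier results of these data known.

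Names passing edgeR's filterByExpr (minimum count 10) were scaled by TMM, spike-ins left out, and tested per line with edgeR 4.0.16 (R 4.3.3) on the 6 libraries, or on all 12 across lines (844 names), two-sided, with Benjamini-Hochberg adjustment at 0.05. SE is the log2 change over the square root of F. The spike-in scale uses median-of-ratios size factors of the 30 spike-ins, leaving out any without reads in a library, as library sizes in edgeR. DESeq2 1.42.0 served as a separate alternative test. Scripts were tested on simulated data.

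The 10 most abundant members were named, with up to 6 called rises and falls per comparison with WT (4 across lines) at 10 CPM or more, the structural RNA list, letter pairs and neighbours of the read limit. Deviations of equal replicate numbers correlated at −0.0910 to 0.151 in HCT116 and −0.0678 to 0.115 in HEK293T, and replicates were therefore not paired. Alternatives were other size factors, library totals, spike-ins, no filter, DESeq2, a replicate block and leaving out each library.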

Additional observations from a re-analysis of the deposited data

Results flagged for a closer look

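The effect of the dsRBD deletion was tested for a difference between the lines (HEK293T minus HCT116, TMM scale, edgeR). It was called higher for 14 members and lower for 5, against 22.4% and 12.4% of all names. Given here are 8 of these, the 4 largest each way among members with a mean of 10 CPM or more over both lines. MiR-1260a differed by 2.39, miR-3611 by 2.33, miR-4286 by 2.27 and miR-1303 by 2.06 on the log2 scale. MiR-3182 differed by −2.49, miR-4497 by −2.12, miR-3133 by −2.02 and miR-7704 by −1.89.

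Of these, miR-1260a, miR-3611 and miR-4286 kept their calls whichever library was left out. The call of miR-1303 was lost without HCT116 deletion replicate 2 (1.11), that of miR-3182 without HCT116 deletion replicate 1 (−1.35) or HEK293T deletion replicate 2 (−2.01). For miR-4497 the smallest value was −0.57, without HCT116 deletion replicate 1, and the call was also lost without HCT116 WT replicate 2 (−1.80) or HEK293T WT replicate 1 (−2.06), WT replicate 2 (−2.02) or deletion replicate 2 (−1.62). The call of miR-3133 was lost without HCT116 deletion replicate 1 (−1.74) or HEK293T WT replicate 2 (−1.02), deletion replicate 1 (−1.86) or deletion replicate 2 (−1.99), and that of miR-7704 without HCT116 WT replicate 1 (−1.83), deletion replicate 1 (−1.34), HEK293T WT replicate 2 (−1.38) or deletion replicate 2 (−1.41).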

How the results depend on the processing

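The scaling decides the reading most. With spike-in size factors, and then the spike-in total, the deletion gave 2 and 2 members higher and 16 and 17 lower in HCT116. Over all 795 names there, 7 and 7 were higher and 598 and 604 lower. In HEK293T it gave 7 and 9 members higher and 17 and 16 lower. Over all 626 names there, 60 and 64 were higher and 386 and 383 lower. HEK293T against HCT116 with WT gave 6 and 6 members higher and 25 and 26 lower. Over all 844 names, 85 and 85 were higher and 577 and 584 lower. AA in HCT116 gave 0 higher with the size factors and 6 and 5 lower, where 2 of all names were higher and 270 and 181 lower. AA in HEK293T gave 0 and 0 higher and 12 and 19 lower, where 8 and 2 of all names were higher and 190 and 290 lower. With the size factors the summed members stood at 75.8% of WT there, next to 74.5% for all miRNA reads. With AA in HCT116 these values were 91.75% and 57.8%. On the same pair of scales the log2 change with the deletion turned negative in HCT116 for miR-4521 (−0.18 and −0.17), miR-1260b (−0.65 and −0.63), miR-1268b (−0.065 and −0.062), miR-1268a (−0.061 and −0.058), miR-7974 (−0.060 and −0.042), miR-4454 (−0.16 and −0.15), miR-4484 (−0.45 and −0.43), miR-4286 (−0.49 and −0.48), miR-4517 (−0.12 and −0.12), miR-1246 (−0.26 and −0.25), miR-7641 (−0.12 and −0.13), miR-1248 (−0.28 and −0.28) and miR-1260a (−0.67 and −0.67). In HEK293T it did so for miR-4521 (−0.16 and −0.13), miR-7974 (−0.56 and −0.52), miR-4454 (−0.051 and −0.026), miR-4517 (−0.67 and −0.63), miR-1246 (−0.57 and −0.53), miR-2110 (−0.85 and −0.83), miR-3687 (−0.36 and −0.33), miR-7706 (−1.33 and −1.30), miR-3648 (−0.13 and −0.10) and miR-3651 (−0.67 and −0.65), and with AA for miR-4286 (−0.034, spike-in total). These lists cover a chosen part of the members and are not complete. Of all 48 members, 37 lay above 0 with the deletion in HCT116 on the TMM scale and 13 with spike-in size factors. In HEK293T 39 and 17 did. The cause was not tested. Other scalings and filters moved the smaller counts. AA in HCT116 gave 3 members higher with library totals and 4 with no filter, and over all names 22 and 13. AA in HEK293T gave 1 higher and 7 lower with no filter, and 10 higher and 2 lower with upper-quartile factors. Over all names these were 23 and 113 with no filter, and 129 and 41 with upper-quartile factors. The line difference of the deletion effect gave 9 higher and 8 lower with DESeq2 and 10 lower with median-of-ratios size factors in edgeR. It gave 4 higher and 12 lower with library totals, 8 and 9 with no filter, and 11 lower with upper-quartile factors. Over all names, in the same order, these were 141 and 125, 136, 93 and 197, 135 and 136, and 141. The line difference of AA gave 5 lower with library totals, 3 with no filter and 8 with the spike-in total. Over all names these were 71, 32 and 49. With 1 library left out, the counts ran from 28 to 34 higher and 3 to 5 lower (deletion, HCT116), 27 to 31 and 4 to 7 (deletion, HEK293T), 0 to 5 and 0 to 2 (AA, HCT116), 1 to 2 and 1 to 4 (AA, HEK293T), 11 to 13 and 1 to 6 (line difference, deletion) and 0 to 1 and 0 to 3 (line difference, AA). The matching counts over all names are not given here, so these ranges do not set the members apart.

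The labels do not say whether equal replicate numbers mark paired libraries, and the weak correlations of their deviations cannot settle it. With the replicate block the deletion gave 33 higher and 3 lower in HCT116 and 32 and 6 in HEK293T, and AA gave 1 and 2 in HCT116 and 4 and 7 in HEK293T. The 7 lower members stood beside 108 lower names over all, and the other counts over all names are not given here. The block ended the HCT116 deletion calls of miR-1260a (1.05) and miR-3611 (−0.84) and the line difference of miR-7704 (−1.89), and gave calls with AA in HEK293T to miR-1268a (−1.38) and miR-1268b (−1.20). Groups of 2 libraries leave few degrees of freedom, and members near 60 reads have few counts per library.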
